A study of Mus musculus with 3 samples.

Results

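Antisense noncoding RNAs are transcripts from the strand opposite a gene. On the chromatin of these macrophages, 265 of the 2948 genes annotated only as antisense RNA passed a set threshold and are described here. They were chosen by the measured level: every transcript of the gene had to be of the antisense type, and the gene had to reach a TPM (a length-scaled transcript abundance) of at least 3 in each of the 3 libraries. The genes Airn, Kcnq1ot1, Nespas, Tsix and Ptgs2os2 were left out by name, of which 2 met the threshold. The level is therefore what selected these genes, and it is described below without a test. Of all antisense-only genes, 9.06% met the threshold, beside 16.1% of the 55536 annotated genes and 2.36% of genes with only lincRNA (long intergenic noncoding RNA) transcripts.

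The cells were C57BL/6J macrophages grown in culture from bone marrow, from mice whose sex and age are not given. Treatment was 12 h of Lipid A at 100 ng/ml, a washout of 12 h and a final 120 min of Lipid A at 100 ng/ml. Lipid A is the portion of lipopolysaccharide that Toll-like receptor 4 senses. All 3 libraries were of this condition, made from ribosomal RNA-depleted RNA of the chromatin fraction, from 1 µg of RNA for replicate 1, 250 ng for replicate 2 and 500 ng for replicate 3. The labels call them biological replicates without naming separate animals, so each SD (n = 3) is the spread between these libraries and may be technical. Total expected counts were 10293545, 17820066 and 17548564. The macrophage label held against its markers, since each library had all 10 macrophage markers at or above 1 TPM, with Adgre1, the F4/80 antigen, at 708 ± 128 TPM. T cell, B cell, erythroid, neutrophil and fibroblast markers each summed to at most 5.65 TPM in any library, and Cd3e, Ly6g and Hbb-bs were listed at 0. Of these lists, the erythroid marker Alas2 (4.23, 5.65 and 2.72 TPM) reached 1 TPM in every library. So did the B cell marker Cd22 (4.12, 3.97 and 2.25) and the T cell marker Cd4 (1.38, 3.42 and 1.18). Untreated cells were not analysed here, so no value below measures a response to the treatment.

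Antisense transcripts arise in several ways. Some start at their own promoter inside a gene, some start at the promoter of a neighbouring gene and run the other way, and some are the end of a transcript that runs into the neighbour. Many are short-lived, because the nuclear exosome degrades them soon after they are made, and RNA held on chromatin is rich in molecules that have not yet left the site of transcription. Whether the deposited counts used strand is not given in the sources used here. Without strand, reads of an antisense gene cannot be told apart from reads of the gene on the other strand, which touches every level below.

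A few RNAs are shown to make the geometry visible. The capitals mark bases that lie opposite an annotated exon of a protein-coding gene, while lower-case bases lie opposite an intron or outside any such gene. Each is a stretch of at most 300 bases of 1 GENCODE M21 transcript, 5′ to 3′, written as DNA. Gm28913 had the highest mean level. Gm28914 lies in the same gene, Ikbke, which encodes a kinase of the interferon response. AC119228.1 lies in Cd274, the gene of the checkpoint ligand PD-L1. Gm16094 overlaps no protein-coding gene of the other strand, and Rab26os is an antisense RNA with capitals nowhere, since both of its exons fall in introns of Rab26.
Gm28913 (chr1:131263330-131266749, plus strand, bases 1 to 300 of 364): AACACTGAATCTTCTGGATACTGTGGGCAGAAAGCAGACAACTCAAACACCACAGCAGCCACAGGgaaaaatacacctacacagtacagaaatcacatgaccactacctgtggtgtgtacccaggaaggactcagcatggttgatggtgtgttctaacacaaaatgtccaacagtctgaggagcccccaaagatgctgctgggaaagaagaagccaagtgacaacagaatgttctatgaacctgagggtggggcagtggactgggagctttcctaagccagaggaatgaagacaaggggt
Gm28914 (chr1:131259507-131260553, plus strand, bases 1 to 300 of 667): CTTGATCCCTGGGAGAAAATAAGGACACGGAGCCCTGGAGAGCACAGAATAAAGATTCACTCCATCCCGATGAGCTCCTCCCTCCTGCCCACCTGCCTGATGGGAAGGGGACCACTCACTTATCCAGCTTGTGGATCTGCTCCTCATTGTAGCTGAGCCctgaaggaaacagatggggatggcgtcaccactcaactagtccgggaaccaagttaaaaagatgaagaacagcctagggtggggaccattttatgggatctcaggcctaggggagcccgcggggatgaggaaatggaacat
AC119228.1 (chr19:29373417-29379591, minus strand, bases 20 to 319 of 460): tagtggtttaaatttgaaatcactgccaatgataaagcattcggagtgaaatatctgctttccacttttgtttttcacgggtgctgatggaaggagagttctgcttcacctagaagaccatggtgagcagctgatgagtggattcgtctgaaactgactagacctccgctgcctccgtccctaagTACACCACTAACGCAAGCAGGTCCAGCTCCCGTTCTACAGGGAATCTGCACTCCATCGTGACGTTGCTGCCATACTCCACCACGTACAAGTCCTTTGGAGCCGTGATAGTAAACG
Gm16094 (chr1:85599286-85599839, plus strand, bases 1 to 300 of 427): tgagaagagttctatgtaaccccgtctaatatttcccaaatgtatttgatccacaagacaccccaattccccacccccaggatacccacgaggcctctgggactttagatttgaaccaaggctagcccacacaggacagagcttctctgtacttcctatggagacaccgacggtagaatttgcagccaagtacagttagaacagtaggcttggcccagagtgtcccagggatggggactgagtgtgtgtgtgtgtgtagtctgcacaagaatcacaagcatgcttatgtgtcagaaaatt
Rab26os (chr17:24528248-24528744, plus strand, all 298 bases): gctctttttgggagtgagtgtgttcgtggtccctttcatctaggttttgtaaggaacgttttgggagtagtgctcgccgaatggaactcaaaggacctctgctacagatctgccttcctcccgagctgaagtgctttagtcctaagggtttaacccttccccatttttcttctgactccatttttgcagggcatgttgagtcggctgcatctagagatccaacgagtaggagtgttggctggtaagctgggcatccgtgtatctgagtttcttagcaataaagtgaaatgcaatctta
In Gm28913 the 65 bases opposite an exon are its 5′ end, and in Gm28914 159 bases at the 5′ end lie opposite exons. In the printed isoform of AC119228.1, 115 bases do, at the 3′ end of the stretch. That isoform is 460 bases long, while the gene has 4725 exonic bases in all, 511 of them opposite exons. The level given below is of the whole gene. All other bases printed are opposite introns or outside protein-coding genes.

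The members spanned a wide range of levels with most of them low. Their mean TPM ran from 3.22 to 218.89, with 152 below 10, 103 from 10 to 50 and 10 at or above 50. The median member was at 7.51, 9.71 and 8.05 TPM in replicates 1, 2 and 3 (8.42 ± 1.15), beside 12.0 ± 1.99 for the 9245 protein-coding genes that reached 1 TPM throughout (called expressed below). On the log2(TPM + 0.1) scale the medians were 3.08 ± 0.19 for the members and 3.58 ± 0.24 for those protein-coding genes. Together the members held 0.601%, 0.471% and 0.463% of the expected counts (0.512% ± 0.0776), and the 10 highest held 28.3% ± 3.99 of the members' counts. Of the antisense-only genes, 1392 had no counts in any library, and the median antisense-only gene was at 0 TPM in each.

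The 2 antisense genes of Ikbke were both among the 10 highest members. Gm28913 was at 217.87, 279.57 and 159.23 TPM in replicates 1, 2 and 3 (219 ± 60.2), and Ikbke across from it was at 1840 ± 296. Gm28914, in another stretch of Ikbke, was at 78.21, 72.54 and 56.89 TPM, 26.6-fold below that gene. AC119228.1 was at 156.90, 150.36 and 163.40 TPM, close to the 212 ± 12.1 of Cd274, and the libraries of the 2 genes did not overlap. Gm40578 was at 144.10, 151.11 and 163.90 TPM, 11.2-fold below Tnfaip2, a gene named for its induction by tumour necrosis factor. Only 9.15% of the span of Gm40578 lies in that gene, and the span also overlaps 1 protein-coding gene on its own strand. Such a same-strand overlap was found for 7 members, and its share among all antisense-only genes was not computed. The part of reads shared with those genes was not tested.

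Other high members lay in introns of genes at a similar level. 4933423P22Rik, in an intron of Ptprj, which encodes a receptor-type tyrosine phosphatase, was at 145.76, 133.88 and 108.82 TPM, and Ptprj was at 168.17, 135.50 and 118.85. Both were highest in replicate 1 and lowest in replicate 3. Gm7480 in Lrmda had the widest relative spread of the 10, at 116.84, 76.02 and 34.26 TPM, while Lrmda stayed between 72.63 and 92.44. Gm43221 in Fam102b was at 51.2 ± 11.3 TPM and its host at 46.5 ± 4.45, with overlapping ranges. Gm37787 was unlike these in that 72.3% of its exonic bases lie opposite exons of Slamf7, a receptor of the SLAM family. It was at 124.21, 68.14 and 47.48 TPM, with Slamf7 at 311 ± 23.8.

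Gm16094 stood apart as the member of the 10 with no overlapping gene on the other strand. Its start lies 469 bases from that of Sp110, which encodes an interferon-inducible nuclear body protein, and the 2 run away from each other. It was at 128.02, 122.31 and 169.69 TPM, below Sp110 at 317.86, 278.72 and 244.27 in each library. Gm16712 overlaps Ebi3, which encodes a subunit of interleukin 27, and starts 282 bases from the start of the splicing factor gene Yju2. It was the only one of the 10 above its overlapping gene in every library, at 66.29, 38.05 and 52.11 TPM against 40.49, 26.40 and 34.54.

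**Figure D1:**
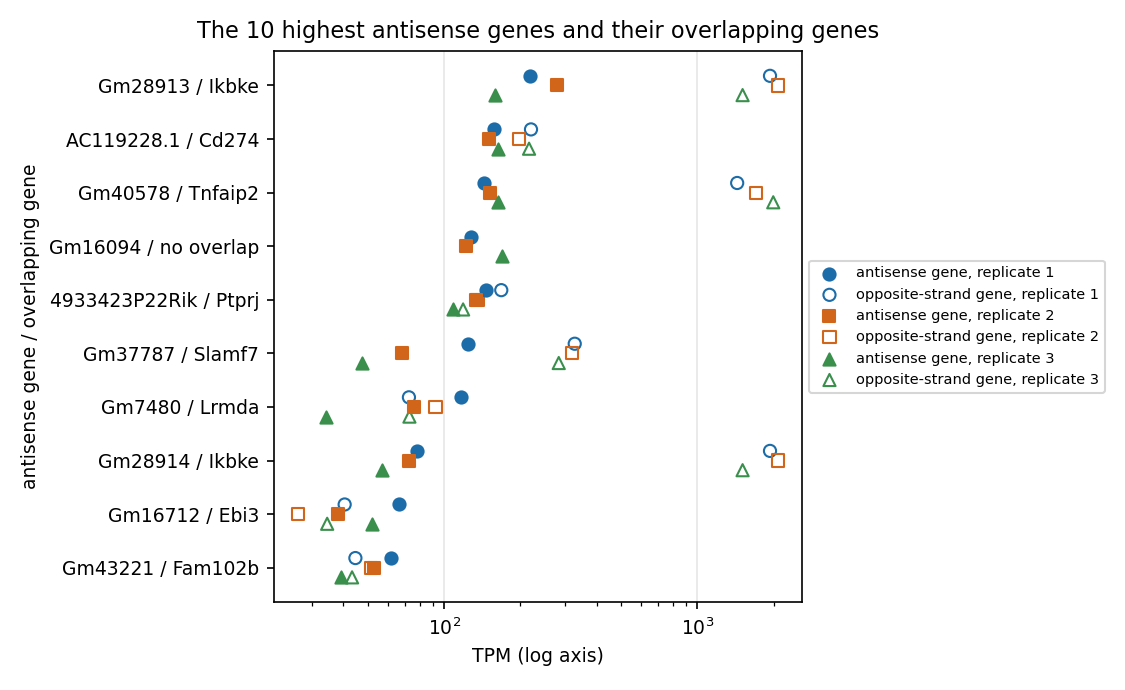
TPM of the 10 highest antisense genes (filled) and of the protein-coding gene on the other strand that each overlaps most (open), on a log axis, with 1 point per library. Ikbke lies between 1508 and 2077 TPM, far to the right of both of its antisense genes, while Gm16712 lies to the right of Ebi3 in every library.

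The protein-coding gene across from a member was usually well expressed. An overlap with such a gene of the other strand, called the host below, was found for 256 of 265 members (96.6%), beside 92.3% of all antisense-only genes. There were 239 distinct hosts. The gene Arhgap10 held 4 members and Lrmda 3. A host reached 3 TPM in all libraries for 241 of 256 members (94.1%), beside 37.1% of the hosts of all antisense-only genes. The median host was at 42.7 TPM (quartiles 18.9 and 91.4) for the members and at 0.37 for the other antisense-only genes. Since counting without strand would tie the 2 levels, the part of shared reads in this difference was not tested.

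Exon overlap was about as common as among all antisense genes. Of 256 members with a host, 107 (41.8%) had no base opposite an annotated exon, beside 38.8% of all antisense-only genes with a host. Another 13 had at least 50% of their exonic bases opposite exons of the host. The members whose spans lie wholly within the host numbered 179. Most had few exon blocks, 24 a single one and 130 having 2. The shares wholly within a host and by exon blocks were not computed for all antisense-only genes. The median member had 1232 exonic bases beside 893 for the other antisense-only genes.

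The antisense gene was below its host in most cases. The median log2 ratio of member to host was -2.15, -2.03 and -2.19 in replicates 1, 2 and 3 (-2.12 ± 0.08), and 220 of 256 members were below the host in every library. The share below the host was not computed for all antisense-only genes, so this count is not set apart from theirs. Across the 256 pairs the log2 levels had a Pearson correlation of 0.44 and a Spearman correlation of 0.44. These are descriptions across genes that share libraries and, without strand, may share reads.

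**Figure D2:**
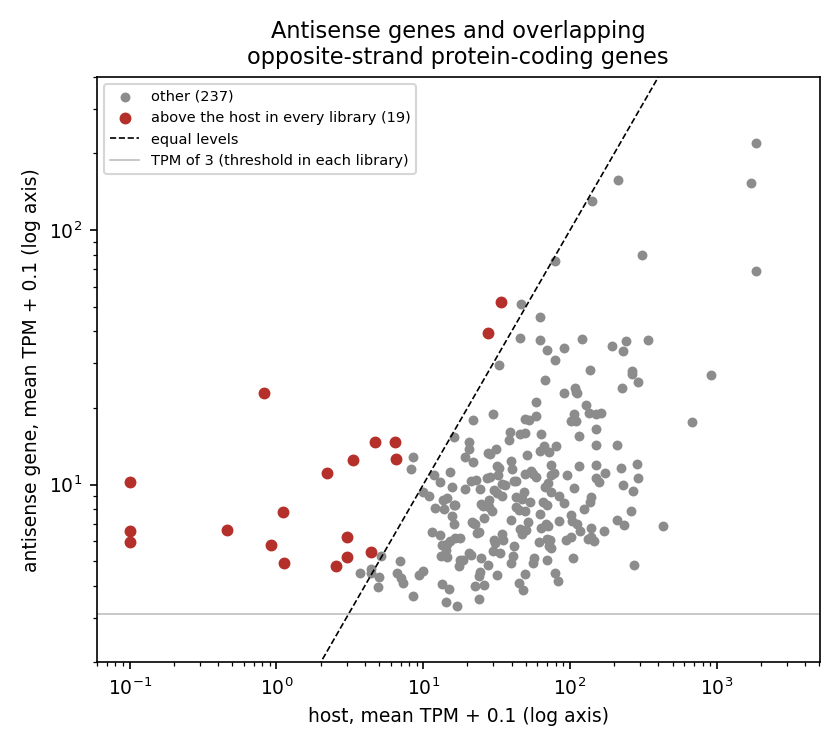
Mean TPM + 0.1 of each member with a host against that of its host, both on log axes, with the line of equal levels and the selection threshold of 3 TPM. The 19 members above the host in every library are in red. Of these, 12 have a host with a mean under 3 TPM, which the threshold places below its member on average.

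The exceptions were few, and the threshold itself favours those with a weak host. In every library 19 of 256 members (7.42%) were above the host, beside 3.27% of all antisense-only genes with a host, a share that the threshold on the antisense level raises by construction. For 12 of the 19 the host had a mean TPM under 3. Every member has at least 3 TPM in each library, so the rule places such a host below it on average. Of the 19, 9 started within 1 kb of a protein-coding start on the other strand, beside 38 of all 265 members. The genes named next were chosen after their values were seen. Gm27177, across from the collagen crosslinking enzyme gene Loxl2, was at 20.90, 20.86 and 26.52 TPM, with Loxl2 at 0.13, 0.79 and 1.26. Gm4673 was at 5.72, 7.15 and 6.66 TPM across from Lsr at 0.36 ± 0.10, and starts 106 bases from Usf2, a transcription factor gene at 17.8 ± 1.56. Both groups of 3 values lay far from those of the host. 9530082P21Rik was at 10.1 ± 2.11 TPM while its host Kremen2 was listed at 0 in every library. Tug1, a conserved nuclear noncoding RNA, starts 482 bases inside the start of Morc2a, a chromatin ATPase gene. It was at 27.95, 47.30 and 42.13 TPM, and Morc2a at 14.10, 36.52 and 31.37, both lowest in replicate 1.

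Antisense genes that lie wholly in host introns allowed a view apart from exon overlap. There were 804 antisense-only genes inside a single protein-coding gene of the other strand with no base opposite its exons, of which 94 were members. Their median level rose with that of the host. For hosts under 1 TPM it was 0 in every library (462 genes), for hosts from 1 to 5 TPM it was 0.342 ± 0.0653 (90 genes), and for hosts from 5 to 20 TPM 1.13 ± 0.134 (101 genes). It was 2.92 ± 0.25 for hosts from 20 to 50 TPM (83 genes) and 6.06 ± 1.5 for hosts from 50 to 100 (35 genes). Above 100 TPM it was 5.23 ± 0.749 (33 genes), with replicate 1 above its value in the class before and replicates 2 and 3 below theirs. The read-based median rose between these classes, from 15.2 ± 4.14 to 19.3 ± 3.01. Members made up none of the 462 genes with hosts under 1 TPM. From there upward they were 8 of 90, 16 of 101, 31 of 83, 21 of 35 and 18 of 33. Members are the genes that met the threshold on level, so these counts restate the levels of the classes.

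Genes annotated as sense-intronic, which lie in introns on the same strand as the host, showed a similar gradient. The 297 such genes were at 2.50 ± 0.631 TPM for hosts from 5 to 20 TPM (58 genes), 4.07 ± 0.949 from 20 to 50 (56 genes) and 5.10 ± 1.06 from 50 to 100 (22 genes). With hosts of 100 TPM or more they were at 11.9 ± 0.276 (12 genes). The antisense genes were lower with no overlap between the values of the 3 libraries in the classes from 5 to 20, from 20 to 50 and of 100 TPM or more. In the class from 50 to 100 TPM the order was the other way in each library, although the ranges of the 3 libraries overlapped. Antisense genes were at 4.75, 7.70 and 5.73 TPM there, and sense-intronic genes at 4.07, 6.185 and 5.05. For hosts from 5 to 100 TPM together, the median log2 ratio to the host was -3.29 ± 0.09 for antisense and -2.78 ± 0.08 for sense-intronic genes. With the read-based values the 2 changed places, at -2.24 and -2.41. The part that unspliced host RNA has in the level of either kind was not tested.

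**Figure D3:**
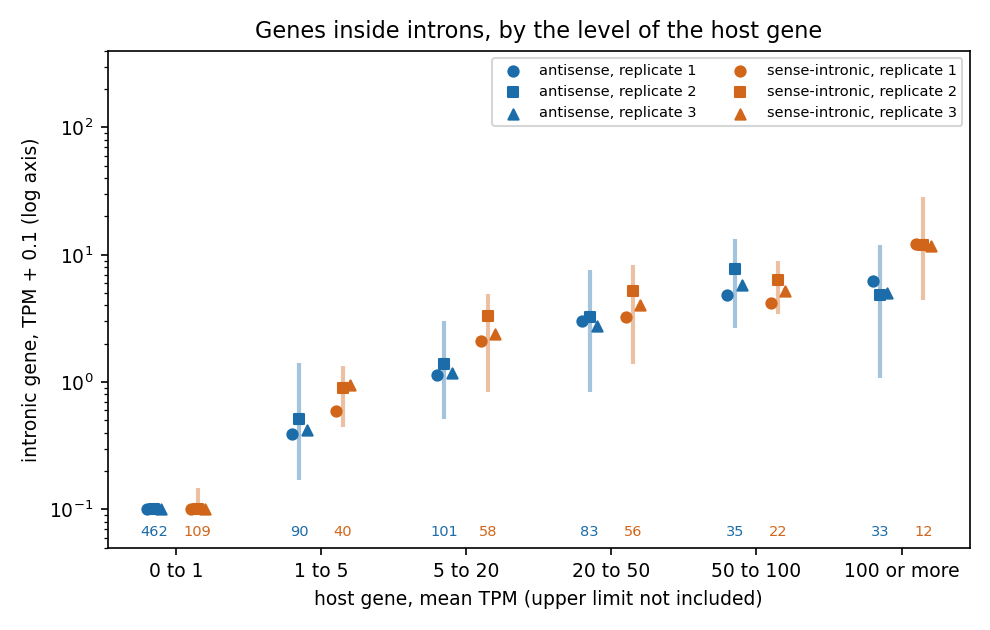
Median TPM + 0.1 in each library of antisense genes (blue) and sense-intronic genes (orange) that lie in introns, on a log axis, by the mean TPM of the host. Bars span the quartiles over genes and the numbers below are genes: both kinds rise from 0 TPM with hosts under 1 TPM to 6.06 and 5.10 TPM with hosts from 50 to 100 TPM.

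Few members began near the start of a gene on the other strand. A protein-coding start of the other strand lay within 1 kb of that of 38 of 265 members (14.3%), beside 21.1% of all antisense-only genes. In 14 of the 38 the 2 genes diverged, and in 24 they overlapped at their 5′ ends. The diverging members included Brip1os, Rab26os and Gm16094. RefSeq promoters (build GRCm38.p6) matched 83 members by symbol, and for 46 of them the RefSeq start lay within 100 bases of the annotated one. Each promoter covers 250 bases before the start and 50 after it. The 10 with an opposite start within 1 kb had a median of 16 CG dinucleotides, the other 36 had 5, and all 32851 promoters of the table had 7.

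The next promoters were picked by hand to illustrate this contrast, with CG dinucleotides in capitals. Gm16712 starts close to Yju2, Rab26os starts 310 bases from Traf7, and 4933431G14Rik, at 35.25, 45.30 and 31.64 TPM, starts inside the sialyltransferase gene St3gal5.
Gm16712 (chr17:55959352-55959651, minus strand): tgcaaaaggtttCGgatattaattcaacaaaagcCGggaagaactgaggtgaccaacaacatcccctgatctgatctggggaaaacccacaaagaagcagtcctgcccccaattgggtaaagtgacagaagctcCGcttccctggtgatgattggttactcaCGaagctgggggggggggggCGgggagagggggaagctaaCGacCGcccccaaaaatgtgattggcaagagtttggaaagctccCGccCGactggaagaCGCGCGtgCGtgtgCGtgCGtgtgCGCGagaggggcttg
Rab26os (chr17:24528001-24528300, plus strand): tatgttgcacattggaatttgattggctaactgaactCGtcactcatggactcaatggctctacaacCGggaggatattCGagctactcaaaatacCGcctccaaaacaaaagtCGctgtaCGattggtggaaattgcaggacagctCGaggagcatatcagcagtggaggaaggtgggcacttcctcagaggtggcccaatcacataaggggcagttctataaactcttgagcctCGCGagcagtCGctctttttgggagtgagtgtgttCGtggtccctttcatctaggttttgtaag
4933431G14Rik (chr6:72123148-72123447, minus strand): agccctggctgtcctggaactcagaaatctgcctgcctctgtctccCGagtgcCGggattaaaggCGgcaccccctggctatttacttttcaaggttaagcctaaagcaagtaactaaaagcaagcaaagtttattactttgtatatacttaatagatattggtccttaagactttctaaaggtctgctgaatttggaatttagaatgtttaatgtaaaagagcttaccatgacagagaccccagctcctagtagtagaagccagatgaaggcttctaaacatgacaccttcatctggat
The first holds 17 CG dinucleotides, the second 11 and the third 3. Motifs of macrophage transcription factors were searched on both strands of the 46 promoters. The AP-1 motif TGANTCA was in 6 (13.0%, beside 7.81% of all promoters), the PU.1 motif GAGGAAGT in 3 (6.52%, beside 3.20%), the interferon response motif (GAAA, any 2 bases, GAAA) in 1 (2.17%, beside 3.44%) and the NF-kB motif (GGG, any 2 bases, TTTCC) in none (beside 1.63%). TATAAA, read on the sense strand only, was in 2 (4.35%, beside 8.32%). These are letter matches in a window and were not tied to binding.

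Members named for a gene allowed the comparison that the names invite. A symbol that ends in os names the gene on the opposite strand, and 17 members had such a partner in the annotation. In 14 of the 17 that partner was also the gene of largest overlap, and in 11 exons of the 2 genes overlapped. The antisense RNA was below its partner in every library in 13 pairs, above it in every library in 3, and mixed in 1. The threshold on the antisense level favours pairs with a weak partner among those above. The median log2 ratio of antisense to partner was -2.13, -2.61 and -2.47 in replicates 1, 2 and 3 (-2.40 ± 0.25). Of the partners, 12 were above the median expressed protein-coding gene, and the median partner was at 32.5 TPM.

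Brip1os exceeded its partner by the widest margin. It was at 8.10, 11.97 and 10.23 TPM, and Brip1, which encodes a DNA repair helicase, at 0.71, 1.11 and 1.02. The libraries did not overlap, and the ratio of the means was 10.7. Since Brip1 was under 3 TPM in each, the threshold places Brip1os above it by construction. The 2 genes do not overlap but diverge from starts 177 bases apart, and the largest overlap of Brip1os is with Ints2, a subunit gene of the Integrator complex, at 12.9 ± 5.43 TPM. Mypopos was at 13.51, 17.93 and 12.43 TPM against 4.04, 5.44 and 4.36 for Mypop, a Myb-related repressor gene that holds it whole. All values of the antisense RNA were above all those of the partner, by a mean log2 ratio of 1.64 ± 0.13.

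Rab26os was the third, with the least evidence. It was at 5.28, 8.02 and 19.76 TPM against 1.58, 2.89 and 1.88 for the small GTPase gene Rab26, with only 14, 14 and 33 counts. Rab26 was under 3 TPM in each library, so here too the threshold places the antisense RNA above its partner. Rab26os was high in replicate 3, where the log2 ratio was furthest from those of the others (2.15 ± 1.03 over the libraries). With counts not divided by length it was no longer above Rab26 in every library. Traf7, which shares the start region with it, was at 112 ± 15.6 TPM. Ccdc142os was the mixed pair, at 4.83, 3.95 and 5.33 TPM against 2.47, 8.91 and 11.54 for Ccdc142. It was above the partner only in replicate 1, where Ccdc142 was low.

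In 13 pairs the partner was above in every library, by a wide range of margins. Dnmt3aos was at 6.47, 6.95 and 5.03 TPM, 16.5-fold below Dnmt3a, the de novo DNA methyltransferase gene, and its log2 ratio of -4.02 ± 0.13 was the lowest of the 17. Aknaos was at 24.02, 20.10 and 13.02 TPM, 8.52-fold below the AT-hook gene Akna. Adap2os was at 27.64, 19.89 and 9.52 TPM, 7.10-fold below Adap2, which encodes an activator of GTP hydrolysis by ARF proteins. Zmiz1os1 was the highest of the 17, at 17.63, 29.32 and 24.71 TPM, 4.54-fold below the transcriptional coactivator gene Zmiz1. None of these 4 overlapped its partner in level in any library.

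The other 9 of these pairs spanned mean log2 ratios from -0.65 to -3.30. Rab10os came closest, at 20.99, 20.43 and 15.22 TPM against 23.94, 37.34 and 28.34 for Rab10, a small GTPase gene of vesicle transport. The log2 ratio was -1.51 ± 0.43 for Peak1os, -1.65 ± 0.32 for Phtf1os, -2.47 ± 0.30 for Sap30bpos and -2.51 ± 0.38 for Ube4bos1. It was -2.65 ± 1.03 for Recql5os1, which had only 13, 7 and 8 counts. Uckl1os was at -2.84 ± 0.43, Tmcc3os at -3.26 ± 0.37 and Atxn7l1os1 at -3.30 ± 0.64. Phtf1os overlaps Rsbn1 more than it does Phtf1, and its ratio to the named partner is given here.

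**Figure D4:**
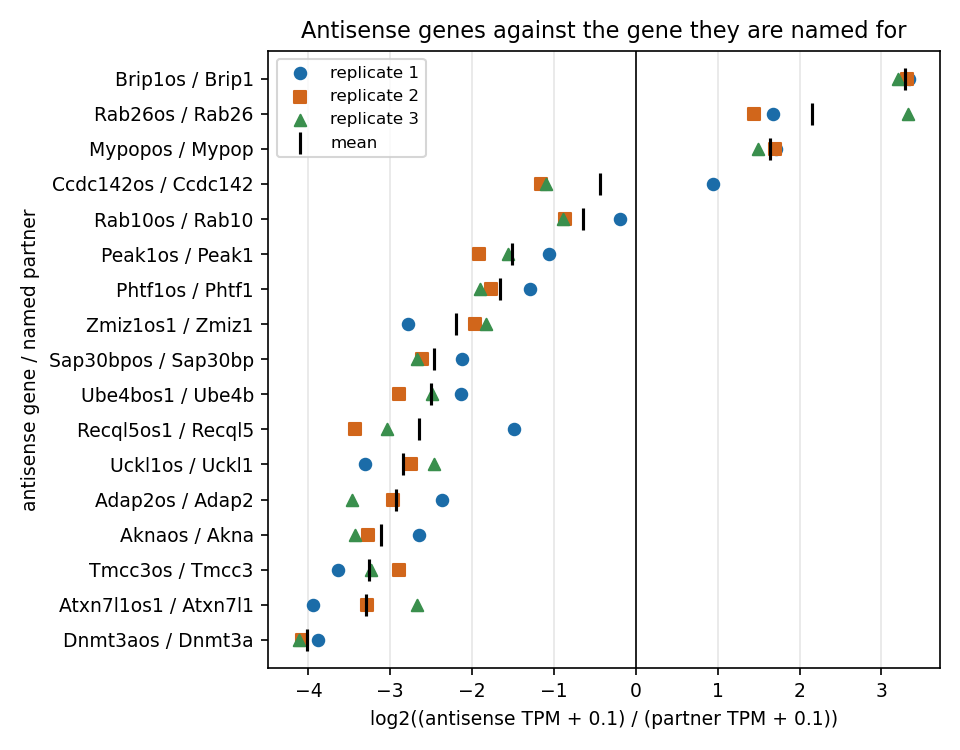
Log2 ratio of antisense TPM + 0.1 to partner TPM + 0.1 in each library for the 17 named pairs, ordered by their mean (bar). Brip1os, Rab26os and Mypopos lie to the right of 0 in every library, and Dnmt3aos lies furthest left at a mean of -4.02. Brip1 and Rab26 were under the threshold of 3 TPM in every library, which places their antisense RNAs to the right.

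On the scale of counts not divided by length, the members differed between libraries mainly through replicate 1. Among the 256 members with at least 10 counts in every library, the median SD of log2(CPM + 0.5), CPM being counts scaled to a common library size with TMM, was 0.32, beside 0.28 for the 10024 genes within the members' range of levels. Without replicate 1 the median SD of the members was 0.158, a value not computed for the other genes, so the fall is not particular to the members. Of these members 165 (64.5%) were highest in replicate 1, beside 40.4% of all genes with that many counts. In 40 members (15.6%) replicate 1 was more than 1 log2 unit above the mean of the other two, beside 5.2% of all such genes, and in 5 members (1.95%) it was as far below, beside 2.49%. The library in which most members were highest depended on the scale. By TPM, 73 of the 256 members were highest in replicate 1, still a larger share than the 18.9% of all such genes. Another 156 were highest in replicate 2. On the log2(TPM + 0.1) scale replicate 1 was more than 1 unit above the mean of the other two in 18 of the 256. That too was a larger share than the 2.54% of all such genes. It was as far below in 20. For the 156 and the 20, the share of all such genes was not computed. Replicate 1 had the largest RNA input and the fewest counts, so input, depth and the library itself cannot be told apart. No value here gives the number of cells or the RNA per cell.

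Among the members, short genes carried most of the excess in replicate 1. Of 81 members with an effective length (the stretch on which a fragment can start) under 500 bases, 29 (35.8%) were more than 1 log2 unit higher in replicate 1, and of 175 longer members 11 (6.29%) were. By TPM, 14 of the 18 members that far above were short. Short protein-coding genes also stood out, with 15.2% of 256 beside 3.29% of 10145 longer ones, and so did short lincRNA genes, with 43.3% of 30. Short sense-intronic genes were at 14.8% of 27, beside 1.98% of 101 longer ones. The contrast was weaker among the other antisense-only genes, with 5 of 24 short ones (20.8%) and 30 of 288 longer ones (10.4%). There, most of the genes that far above were long. The part of fragment size in this was not tested.

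**Figure D5:**
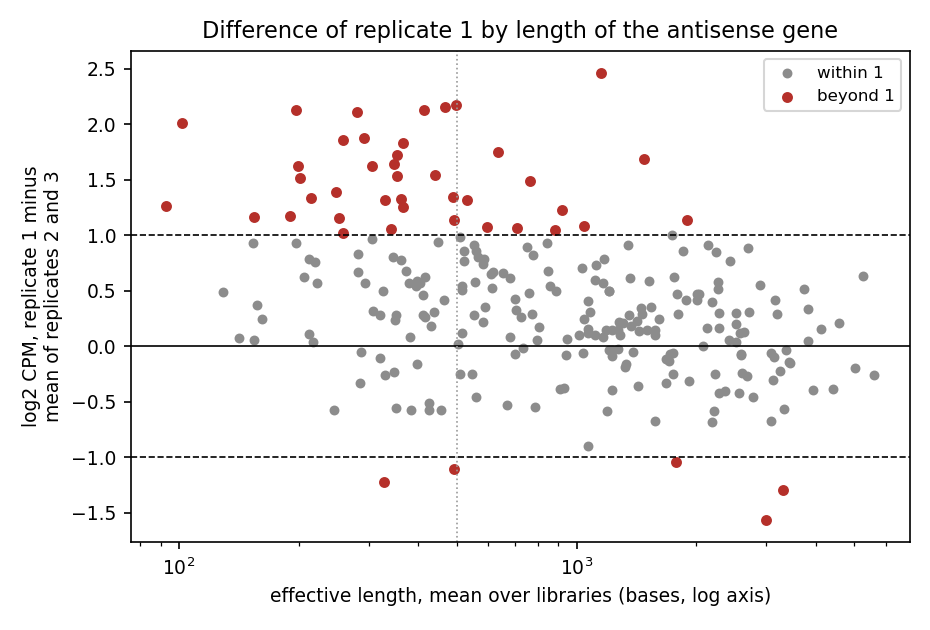
Log2 CPM of replicate 1 minus the mean of replicates 2 and 3 for the 256 members with at least 10 counts in every library, against effective length on a log axis. Members beyond 1 log2 unit (red) gather above the zero line to the left of the dotted line at 500 bases.

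The 5 members with the largest SD were all highest in replicate 1 by alignment. Gm20531, opposite the phosphatase gene Ptpn6 (SHP-1), was at 20.44, 6.51 and 3.45 TPM, an SD of 1.46 in log2 CPM. Gm20234, opposite Slfn2, a Schlafen family gene, was at 63.26, 22.47 and 19.34 TPM, while Slfn2 was at 185.62, 187.62 and 203.14. The read-based values of Gm20234 were 224, 195 and 192 TPM, higher and with little difference between libraries. Gm16552 in Atxn2 was at 21.76, 5.21 and 8.61 TPM and Gm17111 in the dynein heavy chain gene Dync1h1 at 18.68, 8.67 and 4.17. Gm16235 was at 14.26, 3.68 and 3.89 TPM but had 32, 6 and 3 counts. Its read-based values were 26.05, 36.57 and 34.04 TPM, lowest in replicate 1.

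Antisense genes and hosts shared part of their differences between libraries. Over 241 pairs with at least 10 counts each, the difference between replicates 2 and 3 in log2 CPM had a correlation of 0.52 between member and host, and of 0.09 between the member and the nearest protein-coding gene that overlaps neither. For replicate 1 against the mean of the other two the correlations were 0.32 and 0.16. A member was highest in the same library as its host in 137 pairs (56.8%) and in the same library as the neighbour in 94 (39.0%). All pairs share the 3 libraries, and reads counted for the wrong strand would add to the first of these values.

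The read-based quantification placed most members higher. It put 260 of the 265 members at or above 3 TPM in all libraries, and the median log2 ratio of read-based to alignment-based TPM was 0.47, beside 0.39 for expressed protein-coding genes. The 2 values were within 2-fold of each other for 187 members, and 26 members were over 4-fold higher in the read-based table. These 2 shares were not computed for other genes, so the counts are not set apart from theirs. Over all antisense-only genes 22.3% passed the threshold there, including 394 that did not in the alignment-based table.

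The members with the largest gap lay in introns, with 1 exception. Gm17139, whose exonic bases lie wholly opposite exons of Arel1, was at 4.07, 11.52 and 10.22 TPM by alignment and listed at 0 in the read-based table in every library. Gm7580 in Slco3a1, an organic anion transporter gene, was at 13.61, 3.96 and 3.98 TPM by alignment and 133 ± 30.4 read-based. Gm48754 in Rala was at 4.2 ± 0.90 TPM by alignment and 63.3 ± 27.4 read-based, which is above Rala itself at 6.94 ± 0.21 by alignment. Gm12227 in Cdc42se2 was at 4.33 ± 0.52 and 52.6 ± 9.49, and Gm16174 in Bcl3 at 4.34 ± 0.95 and 42.7 ± 17.4. For these 5 the level depends on the quantification by far more than on the library.

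At the threshold the members just inside were Recql5os1 at 4.29, 3.00 and 3.02 TPM, Phtf1os at 3.02, 4.01 and 3.60, and A930006L05Rik at 3.03, 4.47 and 4.02. Just outside were F530104D19Rik at 4.37, 2.98 and 3.61 TPM, Gm26542 at 2.98, 4.58 and 3.90, and Gm9984 at 2.97, 10.67 and 5.50. The lowest values of the 6 lay close to 3, while their other values differed, up to the 10.67 of Gm9984.

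Genes that limit antisense RNA were present. Of 24 genes of the nuclear exosome and its adaptors, 23 reached 1 TPM in all libraries, and the median of the list was 11.9 ± 3.82 TPM beside 12.0 ± 1.99 for expressed protein-coding genes. Srrt, an adaptor that links the cap to the exosome, was at 167 ± 20.9 TPM and Zfc3h1, of the poly(A) tail exosome targeting connection, at 145 ± 48.4. Exosc6, a core subunit, was listed at 0. All 20 genes of early termination and divergent transcription control were at or above 1 TPM, with a median of 18.8 ± 3.69. Among them were Xrn2, the nuclear exonuclease of termination, at 68.4 ± 20.1 TPM and Pcf11, of cleavage and termination, at 54.0 ± 4.01. These are levels of RNA on chromatin, and no value here relates them to the members.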

How the data were processed

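RNA of the chromatin fraction was measured in 3 libraries of 1 condition, with no contrast. The authors deposited, per library, a table of genes with expected counts and TPM whose header is that of RSEM, and a table of transcripts with the header of kallisto (its estimated counts and TPM). Per the deposited notes the build is mm10 with GENCODE M21, and the first derives from alignments (alignment-based) and the second from reads (read-based). Neither program versions nor strand settings are stated in those sources. The gene table also holds credibility bounds of TPM, another deposited quantity that was not used in the text. Rows with numeric identifiers and spike-ins (26345) were left out of gene counts.

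Read-based values were summed per gene. Log2 ratios used a pseudocount of 0.1 TPM, which understates changes of low genes. Counts were rounded and scaled with edgeR 4.0.16 (TMM, R 4.3.3) over 13301 genes with at least 10 counts in every library. DESeq2 1.42.0 size factors were an alternative. A host is the protein-coding gene of the other strand with the longest overlap. Depth limits low members, and 9 had under 10 counts in some library.

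Named are members with a named partner, the 10 highest, 3 on each side of the threshold, the 5 of largest SD and the 5 of largest gap between quantifications, besides those said to be chosen later. The gene 4933431G14Rik is in none of these classes and was picked by hand for its promoter. The members and lists were chosen with earlier results of these data known. The overlap code was tested on toy genes and the scaling on simulated counts. Alternatives covered thresholds, pseudocounts, the read-based values, CPM, rescaled TPM, filters, size factors, the prior count and each replicate left out. The level of 1 marker gene is not reported here.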

Additional observations from a re-analysis of the deposited data

How the results depend on the processing

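Of 65 alternative values, 53 stayed within 1.5 times the reported count or 1 SD of the reported value. The median SD between libraries has no such spread, and its limit was set at 0.0802. The number of members followed the threshold and the scale: 538 at a TPM of at least 1, 167 at 5, 654 by read-based TPM, and 451 with TPM rescaled without genes of effective length under 200 bases. It was 277 to 314 with a replicate left out. With read-based values the member share of counts was 0.590%, the median level 3.84 on the log2 scale, the median log2 ratio to the named partner -2.03 and to the host -1.90, and the median log2 ratio to the host -2.24 for intronic antisense and -2.41 for sense-intronic genes. The ratio to the host was -1.96 for members with no base opposite an exon, an alternative chosen after seeing the data. The median SD between libraries was 0.158 to 0.341 with a replicate left out, lowest without replicate 1. The other ranges with a replicate left out were 0.467% to 0.536% for the share, 2.98 to 3.16 for the median level, -2.54 to -2.30 for the ratio to the partner and -2.17 to -2.09 for that to the host. The cause of these shifts was not tested. The 3 pairs above the partner stayed 3 with either pseudocount, read-based values or a replicate left out, and were 2 in CPM. No paired analysis was possible because all libraries belong to 1 group. Expected counts cover sampling of reads only, and strand could not be tested with these tables.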
